A study of Mus musculus with 8 samples.

Results

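Tbx21 and Eomes, the genes of the T-box transcription factors T-bet and Eomesodermin, were followed over 4 groups of sorted mouse bone marrow progenitors. These 2 genes, of 17097 with a probe set of their own, were measured by all probe sets annotated to Tbx21 alone or Eomes alone, which were 1 probe set of Tbx21 (1449361_PM_at) and 2 of Eomes (1435172_PM_at and 1426001_PM_at) among the 45141 on the array. RNA was measured on 8 one-colour Affymetrix arrays, 2 for each pairing of a genotype, Nfil3 knockout (KO) or wild type (WT), with a population, prepro NK cells (preproNK) or all-lymphoid progenitors (ALP). Every sample, controls included, was sorted from marrow depleted of lineage-positive cells, in Id2-GFP reporter mice, in which a fluorescent protein follows the Id2 gene. Replicate 1 and replicate 2 were processed on different dates. The labels used here give neither the number, age and sex of the mice nor the surface gate of each population, and nothing says that the 2 samples of a group came from separate animals, so p-values reflect no more than how far these arrays spread, which may be technical.

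T-bet and Eomesodermin share a DNA-binding domain, the T-box, and recognise similar sites. In natural killer (NK) cells both act downstream of cytokine receptors and early regulators, and drive receptors for interleukin 15, interferon gamma, chemokines and cytotoxic proteins. T-bet is also used by type 1 T helper cells and by other innate lymphocytes, whereas Eomesodermin marks conventional NK cells. Nfil3 is a basic leucine zipper factor needed for NK cells to form.

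The promoters of both genes are shown because the knockout removes a DNA-binding factor and the genes followed encode others. The windows hold the 250 bases before the RefSeq start on GRCm38.p6, chr11:97115332-97115581 on the minus strand for Tbx21 and chr9:118477939-118478188 on the plus strand for Eomes. They are written 5′ to 3′, with motif matches in capitals.
Tbx21: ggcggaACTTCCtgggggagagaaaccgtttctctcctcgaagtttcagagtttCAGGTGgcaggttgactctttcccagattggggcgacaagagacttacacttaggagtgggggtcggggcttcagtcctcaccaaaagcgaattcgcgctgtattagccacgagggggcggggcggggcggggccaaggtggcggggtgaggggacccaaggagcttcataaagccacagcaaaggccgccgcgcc
Eomes: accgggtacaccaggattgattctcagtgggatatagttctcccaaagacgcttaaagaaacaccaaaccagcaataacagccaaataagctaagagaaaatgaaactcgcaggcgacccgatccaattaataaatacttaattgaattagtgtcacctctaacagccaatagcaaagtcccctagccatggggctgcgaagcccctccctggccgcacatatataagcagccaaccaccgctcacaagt
Motifs of 4 kinds were searched on both strands. The NFIL3 motif (TTACGTAA or TTATGTAA) occurred in neither window and in 0.931% of 32851 windows of the same length. The T-box motif AGGTGTGA was also in neither, against 1.12% of windows. The Tbx21 window held 1 ETS motif (GGAAGT, found as ACTTCC from 244 to 239 bases before the start), which 19.7% of windows hold. It also held 1 E-box (CAGGTG or CAGCTG, found as CAGGTG from 196 to 191 bases before the start), which 27.7% hold. The Eomes window had no match to any of the motifs searched. The match counts describe these letters only.

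One array stood apart from the others. WT preproNK replicate 2 correlated at 0.613 with the other array of its group across the 26240 probe sets tested and at 0.767 with WT ALP replicate 2, while the 2 KO preproNK arrays correlated at 0.958. Its values had the smallest spread (SD 1.39 log2 over all probe sets, against 1.55 to 1.88). Xist, expressed in female cells, was at 7.94 to 9.30 on the other replicate 2 arrays and at 3.10 to 4.20 on this array and all replicate 1 arrays, so Xist went with the replicate number in 3 groups. Nfil3 was at 4.74 to 6.89 on the 4 WT arrays and at 3.41 to 4.15 on the 4 KO arrays, which did not overlap. Whether its probe set lies in the deleted part is not known.

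Tbx21 was low in ALP of both genotypes, higher in WT preproNK and highest in KO preproNK. In ALP its deposited log2 values were 2.56 and 2.86 on the WT arrays and 2.54 and 3.01 on the KO arrays. In preproNK they were 5.67 and 5.42 on the WT arrays and 7.84 and 8.82 on the KO arrays. All 4 ALP values lay below the median of all probe sets on their array (by 1.00 to 1.40), which was taken as near background since the deposited values carry no detection calls. Both WT preproNK values lay above it, by 1.66 and 1.16, and both KO preproNK values by 3.86 and 4.81. On its array Tbx21 stood at percentiles 6.97 to 21.0 in ALP, 75.6 and 77.2 in WT preproNK, and 93.8 and 97.5 in KO preproNK. The ALP means were 2.71 ± 0.21 in WT and 2.78 ± 0.33 in KO, and the preproNK means were 5.55 ± 0.18 in WT and 8.33 ± 0.69 in KO, each ± the SD over n = 2 arrays. The WT ALP and KO ALP arrays overlapped, and each later step in this order separated the arrays completely. That order, with ALP below WT preproNK below KO preproNK and no overlap, was found for 2.04% of the probe sets tested. In sorted bulk samples, more cells that express a gene and more RNA per cell cannot be told apart.

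**Figure D1:**
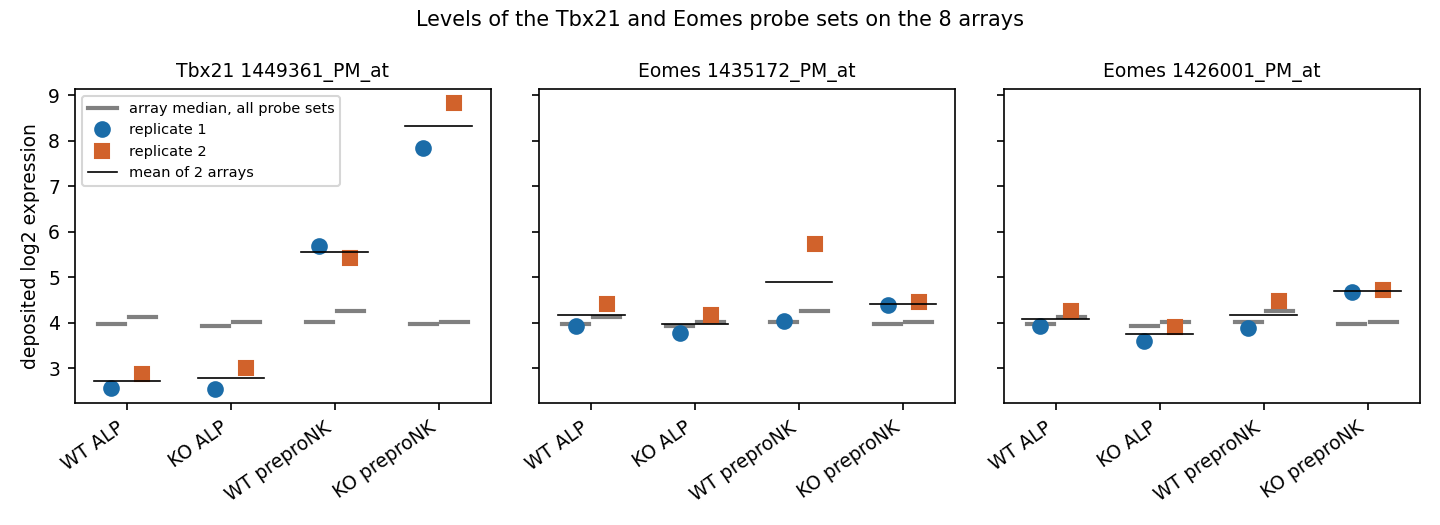
Deposited log2 values (y axis) of the Tbx21 probe set and both Eomes probe sets in the 4 groups (x axis). Circles are replicate 1 arrays, squares replicate 2 arrays, thin lines the mean of 2 arrays and grey bars each array's median over all probe sets. Tbx21 runs from 2.54 to 8.82, and of the Eomes values only 5.73 on WT preproNK replicate 2 lies more than 1 log2 unit above its array median.

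Eomes stayed near the array medians in every group. On probe set 1435172_PM_at the log2 values in ALP were 3.93 and 4.41 in WT and 3.77 and 4.16 in KO, and in preproNK 4.04 and 5.73 in WT and 4.38 and 4.46 in KO. The value of 5.73, on the array that stood apart, was 1.46 above its array's median, and the other 7 lay between 0.16 below and 0.45 above theirs. On probe set 1426001_PM_at the ALP values were 3.93 and 4.25 in WT and 3.60 and 3.91 in KO, and the preproNK values 3.88 and 4.47 in WT and 4.67 and 4.71 in KO. These lay between 0.33 below and 0.71 above the array medians, with both KO preproNK arrays highest. On the first probe set the means were 4.17 ± 0.34 (WT) and 3.97 ± 0.27 (KO) in ALP, and 4.88 ± 1.19 (WT) and 4.42 ± 0.05 (KO) in preproNK (SD, n = 2 each). On the second they were 4.09 ± 0.23 (WT) and 3.76 ± 0.22 (KO) in ALP, and 4.18 ± 0.41 (WT) and 4.69 ± 0.03 (KO) in preproNK.

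The Eomes probe sets agreed on a low level in ALP and disagreed within preproNK. The first gave its highest value on WT preproNK replicate 2, the second on KO preproNK replicate 2. The value of the first minus that of the second was 1.26 on WT preproNK replicate 2, -0.29 and -0.26 on the KO preproNK arrays, and 0.003 to 0.25 on the other 5 arrays. On both, the means of KO ALP and WT ALP were the lowest and second lowest, while the order of WT and KO preproNK was opposite. That opposite order rested on WT preproNK replicate 2. In replicate 1 both probe sets put KO above WT preproNK, by 0.34 and 0.78, and without that array the first gave 0.38. WT preproNK replicate 2 was the highest of the 8 arrays for 22.9% of all probe sets tested. Tbx21 has 1 probe set, so its pattern has no second measurement here.

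From ALP to preproNK, Tbx21 rose in KO and in the mean of both genotypes. The log2 difference between preproNK and ALP was 5.55 in KO (SE 0.43, 95% interval 4.55 to 6.55; adjusted p = 0.00683 by limma) and 4.19 as the mean of both genotypes (SE 0.30, 95% interval 3.49 to 4.90; adjusted p = 0.00244). Of all probe sets tested, 1.44% were called (adjusted p under 0.05) in the KO comparison and 2.82% in the mean. In WT the difference was 2.84 (SE 0.43, 95% interval 1.84 to 3.83) and was not called (adjusted p = 0.13), in a comparison that called 0.061% of probe sets. It was positive within both replicate numbers, at 3.11 and 2.56 in WT and 5.29 and 5.80 in KO. All 4 preproNK arrays lay above all 4 ALP arrays, as for 5.21% of probe sets. With the ALP values raised to their array medians, Tbx21 was at least 20.5-fold higher in KO preproNK than in KO ALP, and at least 2.83-fold higher in WT preproNK than in WT ALP.

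The calls for Tbx21 depended on single arrays, except in the mean of both genotypes. The KO rise was no longer called when any 1 of the 4 KO arrays was left out (log2 differences 5.06 to 6.04; adjusted p = 0.105 to 0.133 by limma), where no probe set was called and 1436 to 1864 had an unadjusted p under 0.05. The WT difference was called without WT preproNK replicate 1 (2.71, adjusted p = 0.0359) and without WT preproNK replicate 2 (2.96, adjusted p = 0.0447). The mean over both genotypes was still called when any 1 of the 8 arrays was left out (3.95 to 4.44, adjusted p = 0.000634 to 0.0294). Blocking on the replicate number raised the counts of probe sets called from 379 to 797 in KO, from 16 to 43 in WT and from 740 to 1627 in the mean.

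Between genotypes, Tbx21 was higher in KO than in WT preproNK on every array, but this difference was not called. It was 2.78 on the log2 scale (SE 0.43, 95% interval 1.78 to 3.78; adjusted p = 0.248 by limma), or 6.87-fold, and the 55th largest of 26240. No probe set was called in this comparison (0%), while 5.26% had an unadjusted p under 0.05, among them Tbx21 (0.000264). KO preproNK lay above WT preproNK without overlap for 22.6% of probe sets. The difference was 2.16 in replicate 1 and 3.40 in replicate 2, which holds the array that stood apart. Without that array it was 2.65 and not called (adjusted p = 0.32 by limma), and without WT preproNK replicate 1 it was 2.91 and was called (adjusted p = 0.0173), as were 5058 probe sets. The median over all probe sets tested was 0.14.

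In ALP no knockout difference in Tbx21 was detectable, with all values near background. The log2 difference was 0.07 (SE 0.43, 95% interval -0.93 to 1.07; adjusted p = 1 by limma), with 0% of probe sets called and 0.0724% under an unadjusted p of 0.05. It was -0.02 in replicate 1 and 0.15 in replicate 2. The interaction, which is the knockout difference in preproNK minus that in ALP, was 2.71 for Tbx21 (SE 0.60, 95% interval 1.30 to 4.13). It was not called (adjusted p = 1 by limma), with 0% of probe sets called and 1.49% under an unadjusted p of 0.05. The interaction was 2.18 and 3.25 within replicate 1 and replicate 2.

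**Figure D2:**
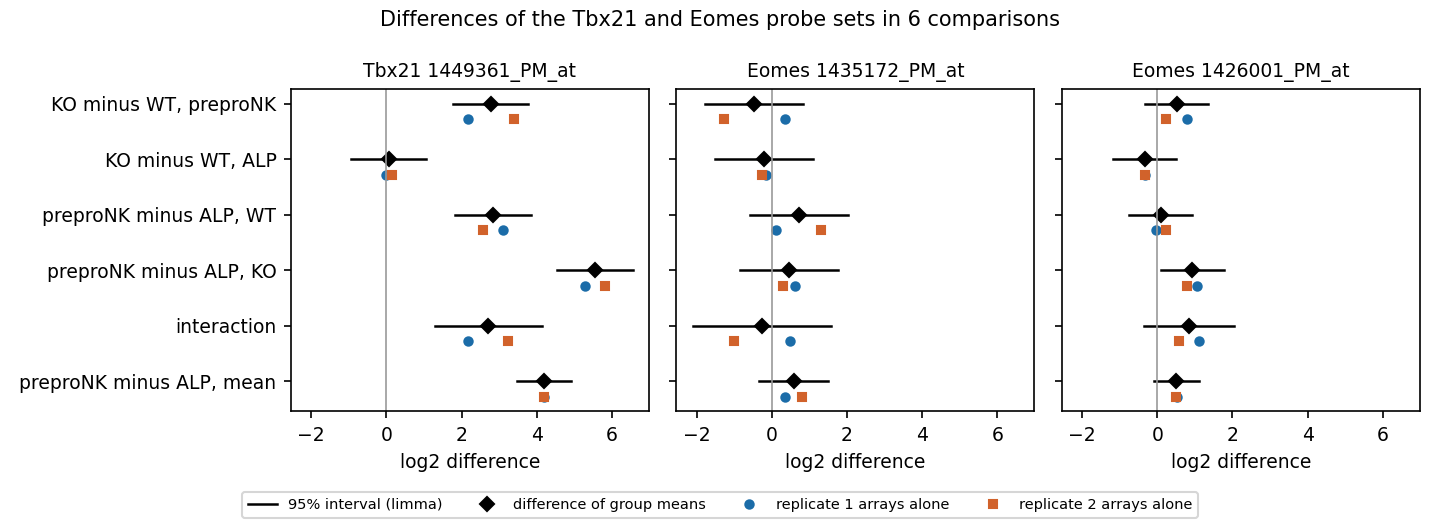
Log2 differences (x axis) of the Tbx21 probe set and both Eomes probe sets in 6 comparisons (y axis). Diamonds are differences of group means with 95% intervals from limma, circles and squares the same difference within replicate 1 and replicate 2. For Tbx21 both replicates lie right of 0 in every comparison but KO minus WT in ALP, and for the first Eomes probe set they fall on opposite sides of 0 in KO minus WT in preproNK (0.34 and -1.27).

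No comparison was called for either Eomes probe set. Between KO and WT preproNK the probe sets had differences of opposite sign, -0.46 (SE 0.56, 95% interval -1.77 to 0.84) on the first and 0.51 (SE 0.36, 95% interval -0.33 to 1.35) on the second, with adjusted p of 0.702 and 0.629 by limma. Without WT preproNK replicate 2 the first turned to 0.38, and within the replicates it was 0.34 and -1.27, against 0.78 and 0.24 on the second. From ALP to preproNK in KO the differences were 0.45 (SE 0.56) and 0.93 (SE 0.36, 95% interval 0.10 to 1.77), positive in both replicates on both probe sets, with adjusted p of 1 and 0.396. In WT they were 0.71 (SE 0.56) and 0.09 (SE 0.36), with adjusted p of 0.89 and 0.985, and the first was -0.13 without WT preproNK replicate 2. Between KO and WT ALP they were -0.20 (SE 0.56) and -0.33 (SE 0.36), lower in KO within both replicates on both probe sets, with adjusted p of 1. Of the intervals of both probe sets in the 6 comparisons, all but that of the second probe set between KO preproNK and KO ALP included 0.

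The genes whose values followed Tbx21 most closely over the 8 arrays included Il2rb and Ccl5. By Pearson's r of log2 values, which describes these 8 arrays and reflects the 4 groups they share, the 8 most alike genes were Marveld1, Ccl5, Cd163l1, Il2rb, Rgs3, Lpcat4, Sparc and 5830411N06Rik, with r from 0.988 to 0.994. Il2rb, the chain shared by the receptors of interleukins 2 and 15, was at 2.85 to 3.27 in ALP of both genotypes, and in preproNK at 6.49 and 5.12 in WT and 8.25 and 8.74 in KO, on the probe set named by this rule. The chemokine gene Ccl5 was at 3.71 to 3.93 in ALP, and in preproNK at 6.56 and 5.60 in WT and 8.02 and 8.38 in KO. Cd163l1, a scavenger receptor gene, was at 2.65 to 3.86 in ALP, and in preproNK at 5.37 and 5.47 in WT and 8.10 and 8.74 in KO. In each of these 3 the KO preproNK arrays were highest and the ALP arrays lowest, without overlap, as for 2.04% of all probe sets tested. Since these genes were chosen for following Tbx21 on the same arrays, their sharing its order is no separate result.

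The genes most alike to Eomes (first probe set) were Deptor, Tmcc1, Stx6, Tmem163, AU041480, Sgpp1, Cyp2c38 and Ptges, with r from 0.98 to 0.986 over 8 arrays. All 8 had their highest value on WT preproNK replicate 2, between 4.92 and 6.24. Without that array their r with Eomes was 0.887 to 0.936, and that of the genes most alike to Tbx21 was 0.988 to 0.995.

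**Figure D3:**
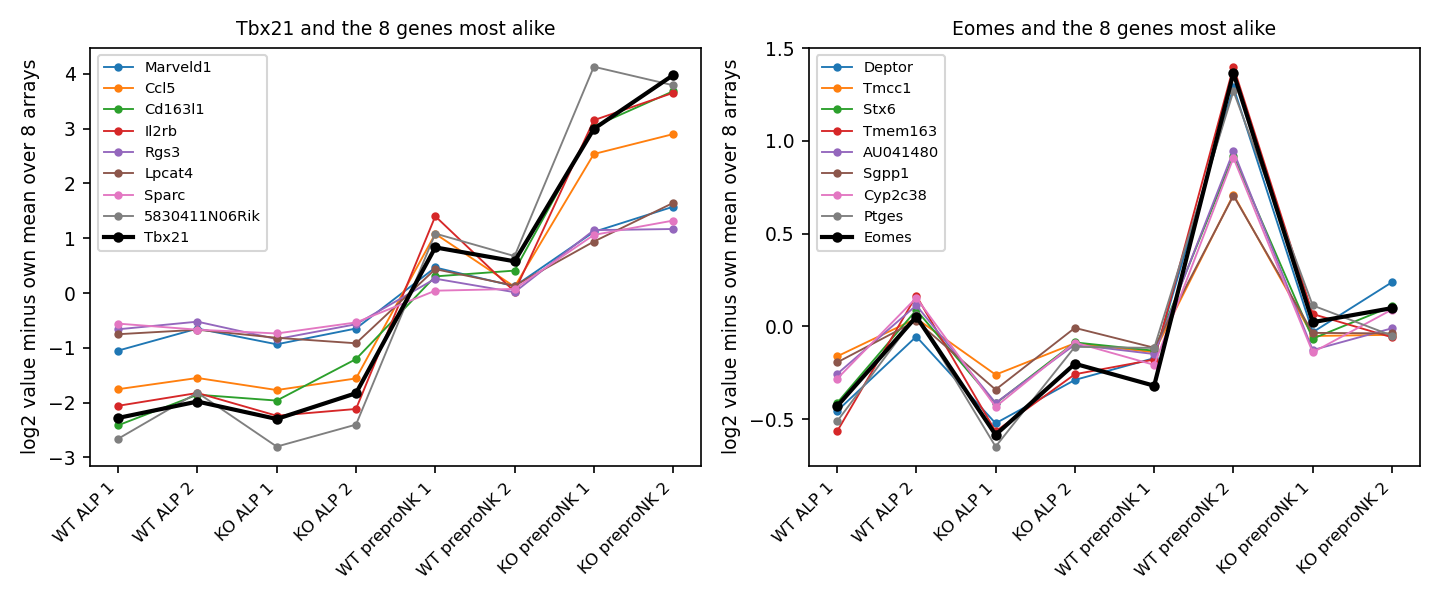
Log2 values minus each gene's own mean over the 8 arrays (y axis), by array (x axis), for Tbx21 and Eomes (black) and the 8 genes most alike to each (colours). The genes most alike to Tbx21 step up from ALP to WT preproNK to KO preproNK, and those most alike to Eomes peak on WT preproNK replicate 2.

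Of 17 genes of the T-box family, 15 had a probe set with a single symbol, 27 probe sets in all. Of these 8 passed the filter for testing, and 1, that of Tbx21, reached 2 log2 units above an array median on any array. A probe set of Mga, a large T-box protein that also dimerises with Max, lay above the median on 7 of 8 arrays, by up to 1.82. Tbx19, known from pituitary cells, was at 4.27 and 6.10 on the WT preproNK arrays and at 3.24 and 3.26 in KO preproNK, with a difference of -1.93 (SE 0.71) that was not called. Like the first Eomes probe set, it was highest on WT preproNK replicate 2. Of 6 tested family genes only Tbx21 was called in KO preproNK against KO ALP, which repeats the call given above. Here and in the lists below each gene was taken by its brightest probe set, for 11583 genes in all.

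Of the cytokine signals that act upstream of T-bet and Eomesodermin, 3 of 20 tested genes rose and 0 fell by limma between KO ALP and KO preproNK, where 1.13% of all genes rose and 0.449% fell. Il2rb, on the brighter probe set that stands for the gene from here on, was at 3.78 and 3.91 in KO ALP and 8.91 and 8.90 in KO preproNK, a difference of 5.06 (SE 0.46, adjusted p = 0.0082). Il18r1, a chain of the interleukin 18 receptor, differed by 4.65 (SE 0.58, adjusted p = 0.0175). Il27ra, a receptor chain for interleukin 27, differed by 3.14 (SE 0.53, adjusted p = 0.0416). Il12rb1, a chain of the interleukin 12 receptor, and Ifngr1, of the interferon gamma receptor, differed by 2.38 (SE 0.54) and 2.88 (SE 0.66) and were not called (adjusted p = 0.107 and 0.108). The list's median was 0.92, beside -0.0042 for all genes tested. From WT ALP to WT preproNK it was 0.45, with 0 called by limma, and 1.36 without WT preproNK replicate 2. Between KO and WT preproNK 0 of 20 were called by limma. Of these 20, 6 were higher in KO at an unadjusted p under 0.05, beside 4.44% of all genes. The median was 1.05, beside 0.15 for all genes, and was 0.34 in replicate 1, 1.94 in replicate 2 and 0.31 without WT preproNK replicate 2.

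Of the transcription factors placed upstream of T-bet and Eomesodermin in NK cells, 17 of 19 had a probe set, all tested, and 4 rose and 1 fell from KO ALP to KO preproNK. The risers were Ikzf3, encoding Aiolos, by 6.53 (SE 1.06, adjusted p = 0.0385), Bcl11b, a T lineage factor, by 4.23 (SE 0.61, adjusted p = 0.0276), Id2, an inhibitor of E proteins, by 4.12 (SE 0.70, adjusted p = 0.0419), and Zbtb16, encoding PLZF, by 2.97 (SE 0.38, adjusted p = 0.0192). Mef2c, a factor of early lymphoid progenitors, fell by 2.57 (SE 0.46, adjusted p = 0.0482). Lef1, a factor of the Wnt pathway, was at 2.62 and 3.17 in KO ALP and 7.73 and 7.06 in KO preproNK, and was not called (adjusted p = 0.0879). The background was 1.13% of genes rising and 0.449% falling. The list's median from ALP to preproNK was 0.74 in KO. In WT it was 0.39, with 0 called by limma, and 1.13 without WT preproNK replicate 2. Between KO and WT preproNK 0 were called by limma, 0 had an unadjusted p under 0.05, and the median of 0.70 turned to -0.17 without WT preproNK replicate 2. Ikzf3 was at 10.5 and 6.66 on the WT preproNK arrays and at 10.64 and 10.55 on the KO preproNK arrays, so only the array that stood apart was low.

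Of the cofactors of T-bet, 8 of 10 had a probe set and 0 were called by limma in any of the 4 comparisons of groups (3 higher at an unadjusted p under 0.05 between KO preproNK and KO ALP, beside 5.78% of all genes higher and 4.63% lower, and 0 in the others). Runx3, which acts with T-bet, was at 8.22 and 7.41 in WT preproNK and 8.58 and 8.62 in KO preproNK. Ets1 was at 9.37 and 6.46, and 9.19 and 9.24.

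Of the genes that T-bet or Eomesodermin activate, 7 of 24 tested rose and 0 fell by limma from KO ALP to KO preproNK, beside 1.13% of all genes rising and 0.449% falling. Cxcr3, a chemokine receptor, was at 4.82 and 3.91 in KO ALP and 10.1 and 9.59 in KO preproNK, a difference of 5.48 (SE 0.63, adjusted p = 0.0147). Il2rb followed, as given above, and S1pr1, a receptor for exit from tissues, differed by 4.68 (SE 0.34, adjusted p = 0.00677). Il18r1 is in this list too. Ccl5 differed by 4.38 (SE 0.41, adjusted p = 0.00914) and Txk, a kinase of T and NK cells, by 3.87 (SE 0.44, adjusted p = 0.0144). Gzmb, encoding granzyme B, differed by 2.07 (SE 0.35, adjusted p = 0.0434). Ifng, the gene of interferon gamma, was at 2.56 and 2.73 in KO ALP and 4.43 and 5.40 in KO preproNK and was not called (adjusted p = 0.072). The median of the list was 1.26, beside -0.0042 for all genes. In WT the list's median was 0.33 and 0 of 24 were called by limma (7 higher and 1 lower at an unadjusted p under 0.05), beside 0.0259% of all genes rising and 2.79% higher at an unadjusted p under 0.05. Without WT preproNK replicate 2, 5 of 24 were called higher in WT preproNK, beside 127 of 11583 genes.

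Between KO and WT preproNK, 19 of these 24 genes had higher values in KO, beside 57.3% of all probe sets tested. In that direction 10 of 24 had an unadjusted p under 0.05, beside 4.44% of all genes. None was called by limma. Cxcr3 was at 7.82 and 5.99 in WT preproNK (difference 2.93, SE 0.63, adjusted p = 0.477), S1pr1 at 5.83 and 5.34 (2.76, SE 0.34, adjusted p = 0.167), Il2rb at 6.77 and 5.76 (2.64, SE 0.46, adjusted p = 0.334) and Ccl5 at 6.56 and 5.60 (2.12, SE 0.41, adjusted p = 0.406). The list's median was 1.10 with all arrays, 0.71 in replicate 1 and 1.64 in replicate 2, and 0.62 without WT preproNK replicate 2. The medians over all genes were 0.15, 0.0083, 0.29 and 0.0059 in the same order. Ccl3 and Ccl4, chemokine genes of activated NK cells, differed by -0.58 and -0.54, and S1pr5 and Fasl did not pass the filter.

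**Figure D4:**
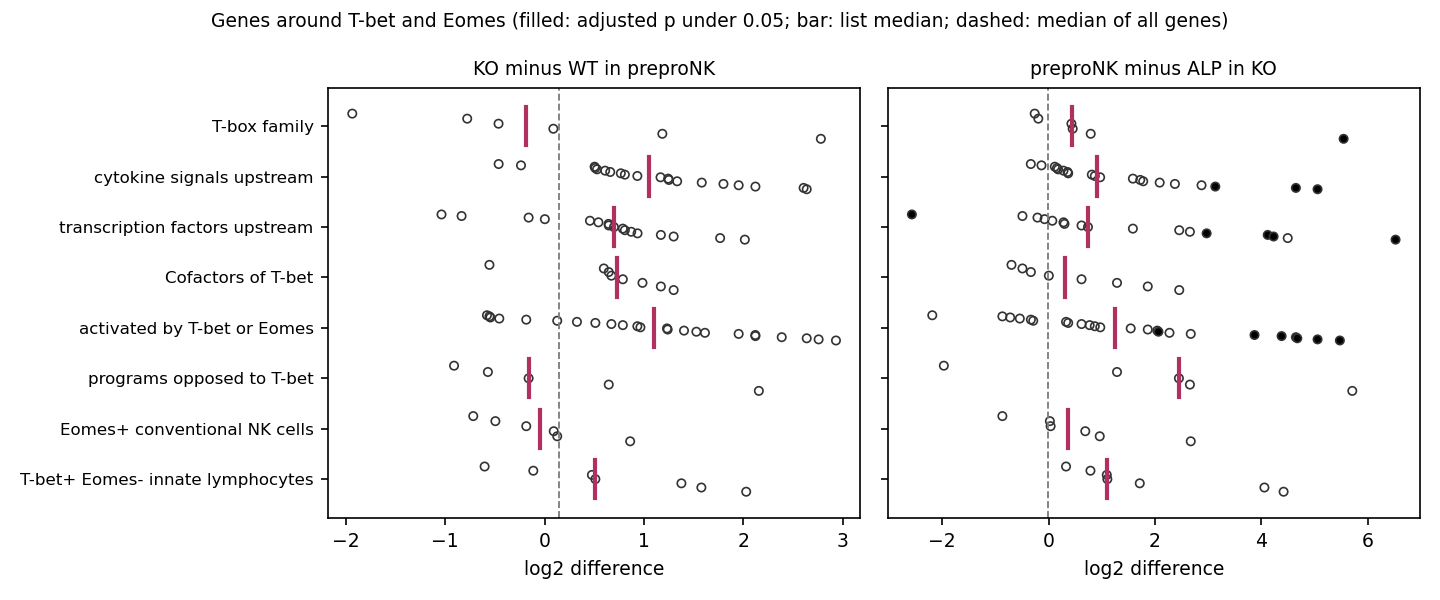
Log2 differences (x axis) of the tested genes of 8 lists around T-bet and Eomesodermin (y axis), between KO and WT preproNK (left) and between KO preproNK and KO ALP (right). Each point is a gene, filled where the adjusted p was under 0.05, with bars at list medians and a dashed line at the median of all genes. Filled points appear on the right alone, 7 of them among the genes that T-bet or Eomesodermin activate.

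The calls from KO ALP to KO preproNK in these lists needed both arrays of each KO group, since leaving out any 1 of the 4 left no probe set called. Without WT preproNK replicate 2 the numbers rising were 6 of 20 for cytokine signals, 6 of 17 for transcription factors and 9 of 24 for activated genes, beside 350 of 11583 genes. In WT, without that array, the medians from ALP to preproNK were 1.36 for cytokine signals, 1.13 for transcription factors and 0.48 for activated genes. For cofactors the WT median was then 0.45 (0.31 in KO), and for opposed programs 4.51 (2.45 in KO). For T-bet-positive Eomes-negative cells it was 2.10 (1.11 in KO), and for Eomes-positive conventional NK cells -0.12 (0.36 in KO). The WT median over all genes was 0.0088.

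Genes of programs opposed to T-bet were measured in part, with 9 of 13 having a probe set and 5 tested, and 0 were called by limma in the 4 comparisons of groups. Between KO preproNK and KO ALP 4 were higher and 1 lower at an unadjusted p under 0.05, beside 5.78% and 4.63% of all genes. In the mean of both genotypes 1 was called higher in preproNK than in ALP, beside 1.61% of all genes. Rora was at 9.58 and 4.32 in WT preproNK and 9.33 and 8.89 in KO preproNK, against 3.36 to 3.88 in ALP. Il17rb, a receptor chain for interleukin 25, was at 10.8 and 8.60 in WT preproNK and 8.92 and 8.69 in KO preproNK, against 5.84 to 6.44 in ALP. Gata3 was at 7.79 and 4.46 in WT preproNK and at 6.27 and 5.67 in KO preproNK. The preproNK groups overlapped only through the value of 4.46, on the array that stood apart. The list's median between KO and WT preproNK was -0.16, beside 0.15 for all genes. It was -1.21 in replicate 1, 0.44 in replicate 2 and -1.21 without WT preproNK replicate 2. Over all genes these medians were 0.0083, 0.29 and 0.0059 in the same order.

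Genes of Eomes-positive conventional NK cells had 6 of 13 tested and 0 calls by limma in the 4 comparisons of groups. At an unadjusted p under 0.05, 2 were higher in KO preproNK than in KO ALP, beside 5.78% of all genes. Itga2, the integrin chain CD49b, was at 4.60 and 4.08 in WT preproNK and 4.63 and 4.23 in KO preproNK, and the medians were -0.05 between KO and WT preproNK and 0.36 between KO preproNK and KO ALP. Klrg1, a receptor of mature cells, was at 8.90 and 5.86 in WT preproNK and 7.47 and 7.54 in KO preproNK. Genes of T-bet-positive Eomes-negative innate lymphocytes had 7 of 9 tested and 0 called by limma in the 4 comparisons of groups. At an unadjusted p under 0.05, 2 were higher in KO preproNK than in KO ALP, beside 5.78% of all genes. In the mean of both genotypes 2 were called higher in preproNK than in ALP, beside 1.61% of all genes. Cxcr6, a chemokine receptor, was at 2.76 to 3.05 in ALP, 6.72 and 4.24 in WT preproNK, and 7.38 and 6.34 in KO preproNK. Inpp4b, a phosphatase gene, was at 3.35 to 3.97 in ALP, 9.49 and 6.47 in WT preproNK, and 7.92 and 7.82 in KO preproNK. From ALP to preproNK in KO all 7 were higher, beside 51.3% of all probe sets tested. In WT 6 of 7 were higher, beside 48.4%. The list's median was 1.11 in KO, beside -0.0042 for all genes. In WT the median was 0.56, beside -0.047 for all genes. Without WT preproNK replicate 2 the WT median was 2.10, beside 0.0088.

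Mean levels of T cell and NK cell markers were higher in preproNK than in ALP, and higher in KO than in WT preproNK in both replicates. Replicate 2 of WT preproNK is the array that stood apart. Between KO and WT preproNK 0 of 13 T cell and 0 of 8 NK cell markers tested were called by limma (0% of all probe sets). At an unadjusted p under 0.05, 9 and 4 of them were higher in KO, beside 4.44% of all genes. Of 15 T cell markers 14 had a probe set, and their mean level above the array median was 0.37 to 0.54 in ALP, 2.52 and 1.41 in WT preproNK, and 3.89 and 3.53 in KO preproNK. Of 13 tested, 10 rose from KO ALP to KO preproNK, beside 1.13% of all genes, among them Cd3e, a chain of the T cell receptor complex, by 7.12 (SE 0.61, adjusted p = 0.0082). Of 10 NK cell markers 9 had a probe set, with means of 0.09 to 0.16 in ALP, 1.09 and 0.36 in WT preproNK, and 2.20 and 1.93 in KO preproNK. Of 8 tested, 3 rose in that comparison (Klrk1, Il2rb and Gzmb), beside the same 1.13%, and the NK receptor gene Ncr1 lay below the median on all 8 arrays, at 2.72 to 4.01. Markers of group 2 innate lymphocytes (ILC2), 6 of 8 with a probe set, were at 0.31 to 0.38 in ALP, 3.60 and 1.45 in WT preproNK, and 2.84 and 2.75 in KO preproNK, so in replicate 1 they were lower in KO than in WT preproNK, with the cytokine gene Il13 below the median on all 8 arrays and Il5 on 7. The part of these cell types in the Tbx21 values was not tested.

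The other marker lists followed the labelled populations in part. Above the array median, myeloid markers were at 1.51 to 2.32 in ALP, 2.50 and 0.83 in WT preproNK, and 2.68 and 2.18 in KO preproNK. Erythroid markers were at 1.14 to 1.36 in ALP and 1.55 to 2.00 in preproNK. Dendritic cell markers were at 1.29 to 1.56 in ALP and 0.31 to 0.80 in preproNK. B lineage markers were at 0.45 to 0.58 in ALP and -0.36 to 0.38 in preproNK. ALP markers, 8 of 10 with a probe set, were at 2.30 to 3.22 above the array median in ALP and at -0.33 to -0.01 in preproNK. Of the list named for preproNK, 7 of 10 had a probe set, and its mean was 1.25 to 1.67 in ALP and 1.47 to 3.57 in preproNK. From ALP to preproNK, 5 of these 7 were higher and 2 lower in each genotype, with medians of 1.75 in WT and 2.66 in KO. By limma 3 were called higher in KO, beside 1.13% of all genes, and 0 in WT. Cd244a, an NK receptor gene, was among the lower, at 4.29 to 4.96 in preproNK and 5.78 to 6.86 in ALP.

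**Figure D5:**
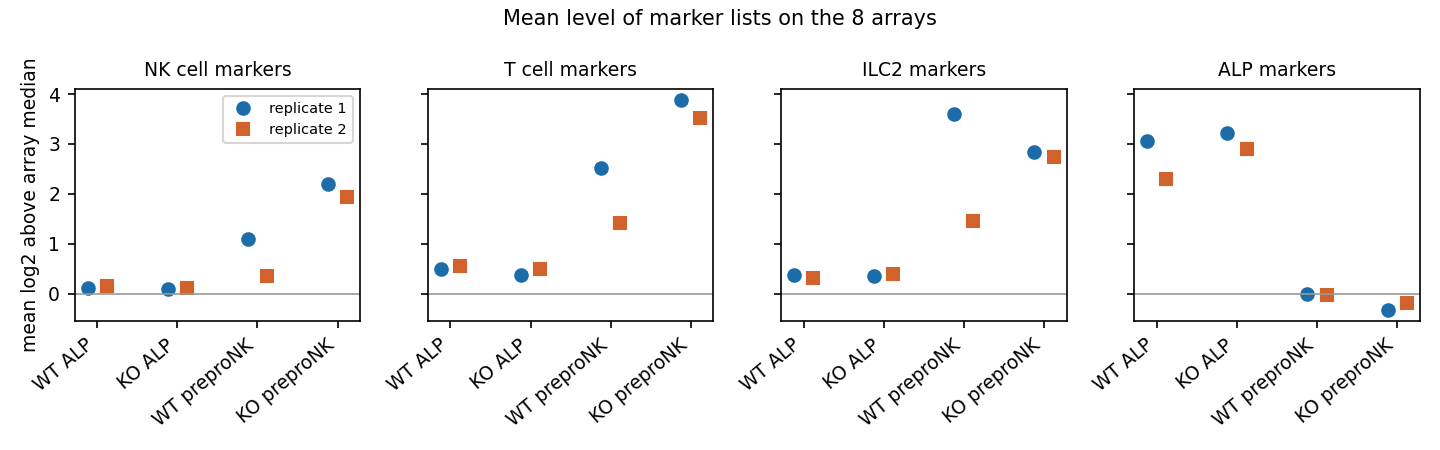
Mean log2 level above the array median (y axis) of 4 marker lists in the 4 groups (x axis), with circles for replicate 1 and squares for replicate 2. NK and T cell markers are highest on the KO preproNK arrays, at 1.93 to 2.20 and 3.53 to 3.89, and ALP markers are high in ALP alone.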

How the data were processed

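RNA of sorted progenitors was amplified and hybridised to 1-colour Affymetrix arrays, per the labels' protocols. The values deposited by the authors are log2 expression per probe set, for which the submitters' processing notes name RMA and Partek. RMA adjusts background, normalizes between arrays and combines probes. Their settings are not given in the sources here, and the scale was read off the values. Precision is limited by the number of arrays.

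Gene names came from the platform annotation: 28898 of 45141 probe sets had 1 symbol, 551 several and 15692 none, and 28689 of the first matched RefSeq. A probe set was tested if it exceeded the median of the whole array on 2 or more of 8 arrays (26240, with all 3 members). A mean per group was fitted with limma 3.58.1 (R 4.3.3), leaving 4 residual degrees of freedom, in 6 comparisons, two-sided. P-values were Benjamini-Hochberg adjusted over all probe sets tested and called under 0.05. Lists took each gene's brightest probe set. At most 6 members per list were named, those with the smallest unadjusted p in KO against WT preproNK or KO preproNK against KO ALP. Members named beyond these, such as Gzmb, Ifng, Ccl3, Ccl4, S1pr5, Fasl and marker genes, were chosen after their values were seen, as was the floor at the array median. The 8 most alike genes were ranked by Pearson's r. The code was tested on simulated data.

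Replicate numbers stand for processing dates, per the series design, and so pair the arrays. Deviations of replicate 1 arrays from their group means correlated at 0.131 to 0.799 between groups. Members and lists were chosen with earlier results of these data known. Alternatives were the replicate block, other filters, 1 probe set per gene, other scalings, array weights, fewer groups and leaving out arrays.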

Additional observations from a re-analysis of the deposited data

Results flagged for a closer look

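The second Eomes probe set (1426001_PM_at) had knockout differences of opposite sign in the 2 populations on every pair of arrays. In preproNK they were 0.78 and 0.24, and in ALP -0.33 and -0.34. The interaction was 0.85 (SE 0.51, adjusted p = 1 by limma) and was not called, and that of the first Eomes probe set was -0.26 (SE 0.79, adjusted p = 1). All values of the second probe set lay within 0.71 log2 of the array medians.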

How the results depend on the processing

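Tbx21 kept a positive difference between preproNK and ALP in both genotypes, and between KO and WT preproNK, under every alternative run. Its rise in the mean of both genotypes was called in 16 of 16 alternatives and its rise in KO in 13 of 17, the exceptions being the removal of any 1 KO array. With the replicate block no call of Tbx21 or of the first Eomes probe set changed (Tbx21 between KO and WT preproNK: adjusted p = 0.105; between preproNK and ALP in WT: 0.0514). Its WT difference was called after repeated quantile normalization (2.98, adjusted p = 0.0437) and with the block and without WT preproNK replicate 2 (3.25, adjusted p = 0.00481). Over all alternatives its adjusted p between KO and WT preproNK was 0.0173 to 0.907. Within replicate 1 and replicate 2 that difference was 2.16 and 3.40. The first Eomes probe set had -0.46 there, but 0.34 in replicate 1, -1.27 in replicate 2, 0.22 with the block and without WT preproNK replicate 2, and 0.51 on the other probe set. Its interaction of -0.26 became 0.43 and 0.85 under the last 2 of these. Leaving out each array in turn gave ranges, in the order KO minus WT in preproNK, KO minus WT in ALP, preproNK minus ALP in WT, in KO, the interaction and the mean stage difference. For Tbx21 these were 2.29 to 3.27, -0.17 to 0.30, 2.69 to 2.98, 5.06 to 6.04, 2.22 to 3.20 and 3.95 to 4.44. For the first Eomes probe set they were -1.31 to 0.38, -0.45 to 0.038, -0.13 to 1.56, 0.26 to 0.65, -1.10 to 0.58 and 0.16 to 1.01. Probe sets called numbered 0 to 5058, 0, 0 to 1346, 0 to 1085, 0 and 38 to 2058, with 517 to 10199 at an unadjusted p under 0.05 in the first. Counts of called probe sets moved more widely than the differences. Between KO and WT preproNK, 0 were called with all arrays, 1 without the filter and 29 with the block and without WT preproNK replicate 2. Between preproNK and ALP in WT, 16 were called, against 43 with the block, 8 without the filter, 78 after repeated quantile normalization (34 higher), 6 with arrays centred on their medians, 4 with array weights, 0 with only those 4 arrays (861 at an unadjusted p under 0.05 by limma) and 760 with the block and without WT preproNK replicate 2. In KO, 379 were called, against 797 with the block, 203 with 1 probe set per gene, 194 centred, 1927 with weights, 2200 with only those 4 arrays and 2412 with the block and without WT preproNK replicate 2. In the mean of both genotypes 740 were called, against 1627, 391, 476 centred and 3341 with the block and without that array. Array weights were equal within a group of 2, so they could not weight WT preproNK replicate 2 down alone. Where 1 array was left in a group, it was taken to vary like the other groups. The fit to only the groups compared was not run for the interaction and the mean, which use all 8 arrays.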
